A study of Mus musculus with 550 samples.

Results

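The comparison described here set 8 mesenteric lymph nodes (MLN, the nodes that drain the gut) taken 12 h after a single dose of dimethyl fumarate together with monoethyl fumarate against 8 MLN taken 12 h after the vehicle. These 16 arrays were chosen by organ, time and treatment from the 550 arrays of the whole series, and each held RNA of the MLN of 1 mouse. All mice were C57Bl/6, and their ages and sexes are not given in the sources used here. The dosed mice (DMF+MEF) received dimethyl fumarate (DMF) at 100 mg/kg and mixed calcium, magnesium and zinc salts of monoethyl fumarate (MEF) at 79.2 mg/kg. Their sample titles give both agents, and their source names give DMF alone. The vehicle was hydroxypropyl methylcellulose. The other MLN groups at 12 h, of 8 mice each, were DMF at 100 mg/kg, DMF at 179.2 mg/kg, the MEF salts at 79.2 mg/kg, and mice labelled naive. MLN of DMF+MEF and vehicle mice, 8 each, were also taken at 6 h.

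DMF and MEF are esters of fumaric acid that react with thiols. A known target is KEAP1, the sensor that marks the transcription factor NRF2 for degradation. NRF2 set free from KEAP1 switches on genes for quinone reduction, glutathione and thioredoxin metabolism, heme breakdown and iron storage. The heat shock genes form a separate stress programme, in which HSF1 switches on chaperones when unfolded proteins accumulate. A lymph node is made up largely of B and T cells held in a mesh of stromal cells, with fewer dendritic cells, macrophages and natural killer (NK) cells. The arrays showed this tissue. In the vehicle group the B cell genes Cd79a and Ms4a1 had mean log2 levels of 11.15 and 11.37, and the T cell genes Cd3d and Cd3e had levels of 11.57 and 11.36. The mean over 13 pancreatic acinar genes, which mark neighbouring pancreas, was 2.55 to 2.70 in the vehicle mice. It reached 3.99 in 1 DMF+MEF mouse, that with animal number 37.

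Of 17097 genes tested, each by 1 probe set, 725 differed between DMF+MEF and vehicle by limma at a Benjamini-Hochberg adjusted p below 0.05, which is termed called below. They made up 4.24 percent of the genes, with 311 higher (1.82 percent) and 414 lower (2.42 percent). The changes were small. The median size among called genes was 0.26 on the log2 scale, 34 called genes changed by at least 0.5, and 1 gene, Nqo1, changed by at least 1. The values of the 16 mice formed groups that did not overlap for 54 genes, 0.316 percent of those tested. In whole tissue, fewer cells of a type and less RNA per cell cannot be told apart.

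The animal numbers bear on these counts. In runs of 12 numbers the vehicle mice held places 1 to 8, while the DMF+MEF mice held places 9 to 12 and 1 to 4. The naive mice held places 5 to 12 and so also differed from the vehicle mice in place, which bears on each naive value below. What the place stands for is not given in the labels. Across the MLN arrays of 12 h, 4281 genes (25 percent) had a called slope on place. Of these, 3261 rose with place and 1020 fell. With place as a line in the model 1080 genes (6.32 percent) were called between DMF+MEF and vehicle, 349 higher and 731 lower, and 653 of them were among the 725. The model shares 1 estimate of spread between the times, and the median residual SD of a gene was 0.142 at 12 h and 0.112 at 6 h. A fit of the 12 h arrays alone called 245 genes (1.43 percent), of which 241 were among the 725. The 12 h fit has the same differences by construction and changes only their errors, and with the place line all 725 genes had the same direction. Both groups held places 1 to 4, called the shared places here. There, with 4 mice against 4, 12 genes (0.0702 percent) were called, 4 of them among the 725, and 720 of the 725 had the same direction. The vehicle mouse with animal number 5 and the DMF+MEF mouse with number 36 had median correlations of 0.99182 and 0.99145 with the other 12 h arrays, beside a median of 0.995558 over all of these arrays. Leaving both out gave 377 called genes, 301 of them among the 725, and leaving out animal 36 alone gave 460.

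Genes of the NRF2 programme were the group with most higher calls. Of 31 measured NRF2 target genes 13 were called higher and 0 lower, and the median change of the list was 0.15, beside 0 for all genes. The share of all genes called higher was 1.82 percent. With 12 h arrays only 9 were called, with the place line 15, and without animals 5 and 36 it was 8. Nqo1, which reduces quinones and is a standard marker of NRF2 activity, had the largest change. Its lowest, median and highest log2 levels were 5.97, 6.46 and 6.91 in the vehicle mice and 7.08, 7.66 and 8.22 in the DMF+MEF mice. All 8 dosed mice lay above the highest vehicle mouse. The mean went from 6.45 ± 0.28 to 7.63 ± 0.34 (SD, n = 8 each), a log2 change of 1.19 ± 0.16 (SE; limma adjusted p = 5.79e-07) or 2.28-fold. In the shared places the change was 0.90 (limma adjusted p = 0.18).

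Gstm1, a glutathione S-transferase, couples glutathione to electrophiles. It had lowest, median and highest levels of 9.61, 10.23 and 10.34 in the vehicle mice and 10.49, 10.70 and 11.06 in the DMF+MEF mice, so that the groups did not overlap. Its change was 0.61 ± 0.081 (adjusted p = 5.79e-07), and that of its other probe set of like level was 0.61 as well. Gstm2, a related enzyme that was not on the list, had levels of 8.27, 8.58 and 8.65 and 8.80, 8.94 and 9.52, again with no overlap. It changed by 0.47 ± 0.072 (adjusted p = 1.42e-05). The genes are closely related in sequence, and the probe set tested for Gstm1 is of the kind that can bind related transcripts. Gstp1 changed by 0.15 ± 0.036 (adjusted p = 0.00762).

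Genes that handle heme and iron were higher as well. Hmox1, which opens the heme ring, had lowest, median and highest levels of 7.29, 7.59 and 7.78 in the vehicle mice and 7.83, 7.99 and 8.13 in the DMF+MEF mice. The groups did not overlap, and the change was 0.46 ± 0.13 (adjusted p = 0.0232). Blvrb, a biliverdin reductase, had levels of 8.34 to 8.79 with a median of 8.69 in the vehicle mice and 8.91 to 9.26 with a median of 8.997 in the DMF+MEF mice, a change of 0.41 ± 0.082 (adjusted p = 0.00090) without overlap. Slc40a1 encodes ferroportin, the iron exporter. It changed by 0.44 ± 0.13 (adjusted p = 0.0311), and 7 of 8 dosed mice lay above the highest vehicle mouse. The call was lost in the fit of 12 h arrays alone (adjusted p = 0.066) and on leaving out any of 7 single mice. The ferritin chains Fth1 and Ftl1, which store iron, rose by 0.15 ± 0.036 and 0.15 ± 0.036 (adjusted p = 0.0103 and 0.0065).

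The thioredoxin branch changed by small steps. Txn1, thioredoxin itself, rose by 0.17 ± 0.026 (adjusted p = 1.42e-05). Prdx1, a peroxiredoxin that thioredoxin reduces, had levels of 11.76, 11.80 and 11.84 in the vehicle mice and 11.87, 11.91 and 12.01 in the DMF+MEF mice, a change of 0.13 ± 0.023 (adjusted p = 0.00027) without overlap. Txnrd1, the reductase of thioredoxin, was not called (0.10 ± 0.039, adjusted p = 0.12), and neither was Srxn1, sulfiredoxin (0.30 ± 0.10, adjusted p = 0.071).

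Other members of the programme were not called. The subunits of the enzyme that limits glutathione synthesis lay near the vehicle level, Gclc at 0.0059 ± 0.10 and Gclm at -0.00016 ± 0.084. Osgin1, an oxidative stress gene, gave 0.30 ± 0.10 (adjusted p = 0.0756) and Aox1, aldehyde oxidase, 0.66 ± 0.23 (adjusted p = 0.0756). The reductases Akr1b8 and Cbr3 gave 0.10 ± 0.092 and 0.073 ± 0.13. The member with the lowest value was Slc7a11, the cystine importer, at -0.25 ± 0.14 (adjusted p = 0.339). Hcar2, the receptor at which monomethyl fumarate acts, was near the lowest value of the table, with mean levels of 2.91 and 2.77, and was not called (adjusted p = 0.263).

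NRF2 binds the antioxidant response element, searched here as TGACNNNGC on both strands of the RefSeq promoters of GRCm38.p6, each from 250 bases before to 50 bases after a gene start. The element was present in 12.4 percent of 32851 promoters of this length and in at least 1 promoter of 14 percent of the genes. Among the NRF2 targets called higher 11 had a promoter in the table, and 1 of them, Prdx1, held the element. Among those not called it was 7 of 14, with Gclm, Srxn1 and Txnrd1 among them. The promoter of Prdx1 is shown because it is the called member with a match. It lies at chr4:116685349-116685648 on the + strand. Capitals mark the element, which is read here on the opposite strand and begins 133 bases before the gene start.
Prdx1: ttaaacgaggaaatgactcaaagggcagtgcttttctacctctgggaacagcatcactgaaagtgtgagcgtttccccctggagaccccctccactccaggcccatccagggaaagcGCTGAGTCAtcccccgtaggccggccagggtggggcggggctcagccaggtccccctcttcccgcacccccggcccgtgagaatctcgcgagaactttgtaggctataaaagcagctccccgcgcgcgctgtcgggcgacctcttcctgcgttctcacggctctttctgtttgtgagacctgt

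**Figure D1:**
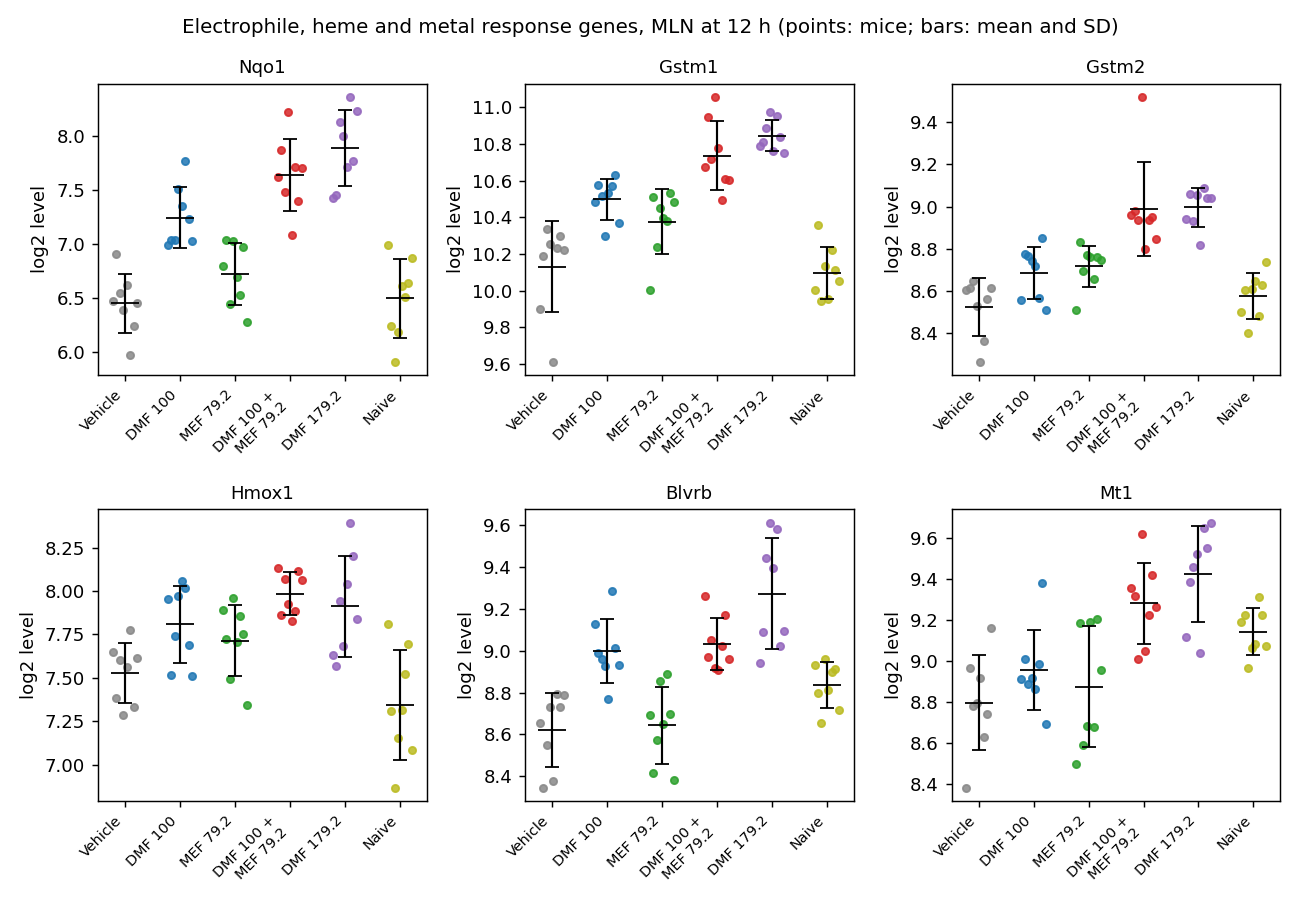
Log2 level of 6 induced genes in each MLN at 12 h (points, 1 mouse each) in 6 groups, with the mean and SD as bars. For Nqo1, Gstm1, Gstm2, Hmox1 and Blvrb the 8 DMF+MEF mice lie above all 8 vehicle mice, and for Mt1 6 of the 8 do.

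Mt1, a metallothionein that binds zinc and other metals, was the 1 called gene of 6 measured zinc response genes, beside 4.24 percent of all genes. Its lowest, median and highest levels were 8.38, 8.79 and 9.16 with vehicle and 9.01, 9.29 and 9.62 with DMF+MEF, a change of 0.48 ± 0.14 (adjusted p = 0.0261). The groups overlapped, with 6 dosed mice above the highest vehicle mouse. The call was lost without DMF+MEF animal 36 or vehicle animal 1, and without animals 5 and 36 no zinc response gene was called. The list had a median of 0.021.

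Several genes outside the stress lists rose. Cplx2, a complexin that acts in vesicle release, had levels of 5.11, 5.48 and 5.64 with vehicle and 5.87, 6.14 and 6.58 with DMF+MEF, and the groups did not overlap. Its change was 0.76 ± 0.092 (adjusted p = 4.46e-08). It rests on 1 of 3 probe sets, the others having changed by -0.012 and -0.070, and on that probe set the naive mice lay above vehicle by 0.84. Slc14a1, a urea transporter, had levels of 8.11, 8.33 and 8.95 and 8.72, 8.93 and 9.18, with 4 dosed mice above the highest vehicle mouse. It rose by 0.50 ± 0.095 (adjusted p = 0.00039) and by 0.49 on its other probe set. Its naive mice lay above vehicle by 0.66. Tmem140, a membrane protein, rose by 0.45 ± 0.11 (adjusted p = 0.00884), with 7 of 8 dosed mice above the highest vehicle mouse. Aak1, a kinase of clathrin adaptors, rose by 0.17 ± 0.029 (adjusted p = 9.34e-05). It was the 1 gene called higher in the shared places, by 0.23 (adjusted p = 0.0465).

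Genes of NK cells and macrophages among the higher calls lay near the threshold. Of all genes 1.82 percent were called higher. Gzma, a granzyme of NK and cytotoxic T cells, had levels of 6.68, 7.24 and 8.23 in the vehicle mice and 7.22, 7.82 and 9.07 in the DMF+MEF mice. It changed by 0.72 ± 0.22 (adjusted p = 0.0443), the groups overlapped, and the call was lost on leaving out any of 10 single mice. It was the 1 called gene of 14 NK cell markers, of which 12 lay above 0, with a median of 0.20. The mean over these markers ran from 6.74 to 6.91 in the vehicle mice and from 6.67 to 7.38 in the DMF+MEF mice. Cd5l, a secreted protein of tissue macrophages, gave 0.68 ± 0.21 (adjusted p = 0.0443). Clec4a2, a lectin receptor of myeloid cells, gave 0.44 ± 0.13 (adjusted p = 0.0356), and Cd68, a lysosomal protein of macrophages, 0.25 ± 0.078 (adjusted p = 0.0498). Leaving out a single mouse ended the call for 11, 9 and 13 of the 16 mice in this order. Of 14 macrophage and monocyte markers 1, Cd68, was called, and the list had a median of 0.012.

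Some genes of complex I and of the proteasome rose by small amounts. Of 28 measured subunits of complex I, the entry of electrons into the respiratory chain, 5 were called higher and 0 lower, beside 1.82 percent of all genes called higher, with a median of 0.098 and 23 members above 0. Ndufc1 had the largest change of them, 0.32 ± 0.071 (adjusted p = 0.00372), from a median of 10.67 to 10.89. Ndufs6 rose by 0.19 ± 0.038 (adjusted p = 0.00075), with no overlap between 9.55 to 9.71 in the vehicle mice and 9.75 to 10.00 in the DMF+MEF mice. Ndufb8, Ndufc2 and Ndufv3 rose by 0.17, 0.18 and 0.16. Of 30 proteasome genes 6 were called higher and 0 lower, with a median of 0.090 and 25 members above 0. Psma5, a ring subunit of the core particle, rose by 0.21 ± 0.043 (adjusted p = 0.00157), and its 8 dosed mice (9.70 to 9.96) lay above the vehicle mice (9.46 to 9.69). Psma6, Psma7 and Psmd8 rose by 0.18, 0.16 and 0.15, and Psma3 and Psmb3 by 0.092 and 0.11. Psma6 and Psmd8 lost their call on leaving out any of 7 and 8 single mice. With 12 h arrays only, 5 complex I genes and 2 proteasome genes were called, and in the shared places 0 of either list. In the naive mice 14 complex I genes were called higher than vehicle and 1 lower, with a median of 0.090. For the proteasome genes it was 7 higher and 6 lower, with a median of 0.0021. Between naive and vehicle 24.4 percent of all 17097 genes were called, 2284 higher and 1890 lower.

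Most of the measured heat shock genes fell. Of 15 measured heat shock genes 10 were called lower and 0 higher, with a median of -0.33 beside 0 for all genes. The share of all genes called lower was 2.42 percent. The called members were Hspa1b, Bag3, Dnajb1, Dnajb4, Hspa4l, Hsph1, Stip1, Dnaja1, Chordc1 and Cacybp. The mean level over the 15 genes was 9.15 to 9.45 in the vehicle mice and 8.84 to 9.14 in the DMF+MEF mice, with no overlap. Hspa8 and Hspe1 gave -0.045 ± 0.039 and 0.046 ± 0.032 and were not called, and Hsp90aa1 gave -0.21 ± 0.11 (adjusted p = 0.306). With 12 h arrays only 5 were called lower, with the place line 9, and without animals 5 and 36 it was 6.

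Hspa1b, the heat-induced HSP70, had the largest fall of the list. Its lowest, median and highest levels were 7.08, 7.60 and 8.47 in the vehicle mice and 6.29, 6.83 and 7.80 in the DMF+MEF mice. The groups overlapped, with 6 dosed mice below the lowest vehicle mouse. It fell by 0.81 ± 0.21 (adjusted p = 0.0146), and the mean of its 3 probe sets gave -0.44. Hsph1, the HSP110 exchange factor of HSP70, had levels of 11.87, 12.17 and 12.39 with vehicle and 11.52, 11.79 and 11.95 with DMF+MEF, and 6 dosed mice lay below the lowest vehicle mouse. It fell by 0.39 ± 0.066 (adjusted p = 7.75e-05). Chordc1, a co-chaperone of HSP90, had levels of 10.17, 10.29 and 10.47 and 9.90, 10.01 and 10.14 without overlap, and fell by 0.29 ± 0.052 (adjusted p = 0.00023). Dnajb4, an HSP40 protein, fell by 0.40 ± 0.094 (adjusted p = 0.00654) without overlap. Bag3, a partner of HSP70 in protein clearance, fell by 0.49 ± 0.13 (adjusted p = 0.0177). Its call was lost with 12 h arrays only (adjusted p = 0.0555) and without vehicle animal 5 or 8.

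The members differed in their course over the places. Dnajb1, which feeds clients to HSP70, averaged 9.57 in the DMF+MEF mice at places 9 to 12 and 10.20 in those at places 1 to 4. The vehicle mice averaged 10.36 at places 1 to 4 and 10.27 at places 5 to 8. Its change was -0.42 ± 0.094 over all places (adjusted p = 0.00339) and -0.15 in the shared ones (adjusted p = 0.67). Bag3 averaged 5.58 at places 1 to 4 and 6.08 at places 5 to 8 in the vehicle mice. In the DMF+MEF mice it averaged 5.21 at places 1 to 4 and 5.47 at places 9 to 12. In the shared places the list had a median of -0.16 with 0 called. The naive mice, at places 5 to 12, had the lowest values of the 6 groups at 12 h, with a mean over the list of 8.75 to 8.97. In them 11 of 15 members were called lower than vehicle. Of all 17097 genes 24.4 percent were called in that comparison, 1890 lower and 2284 higher. The part of place in these naive values was not tested. The DMF 100 mg/kg mice ran from 9.17 to 9.49, the MEF mice from 9.07 to 9.29 and the DMF 179.2 mg/kg mice from 8.97 to 9.24.

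HSF1 binds repeats of GAA in alternating direction. The heat shock element was searched as GAA, any 2 bases, TTC, any 2 bases and GAA on both strands. It stood in 0.603 percent of the 32851 promoters and in 0.662 percent of the genes. Of the 10 heat shock genes called lower, each with a promoter in the table, 2 held it, Chordc1 and Hsph1. Of 3 members not called that had a promoter 1 did, Hspe1. The promoters of Chordc1 and Hsph1 are shown as those of the called chaperones with a match. That of Chordc1 lies at chr9:18292017-18292316 on the + strand and has 3 overlapping matches, the first of which begins 4 bases before the gene start. That of Hsph1 lies at chr5:149636266-149636565 on the - strand and has 1 match, which begins at base 16 from the gene start. Capitals mark the element.
Chordc1: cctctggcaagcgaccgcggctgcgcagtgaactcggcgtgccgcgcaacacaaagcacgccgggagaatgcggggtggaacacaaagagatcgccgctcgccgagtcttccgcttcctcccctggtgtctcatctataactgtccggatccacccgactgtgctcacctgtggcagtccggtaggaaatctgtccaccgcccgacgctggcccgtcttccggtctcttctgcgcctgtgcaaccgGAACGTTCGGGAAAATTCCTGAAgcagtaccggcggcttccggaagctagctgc
Hsph1: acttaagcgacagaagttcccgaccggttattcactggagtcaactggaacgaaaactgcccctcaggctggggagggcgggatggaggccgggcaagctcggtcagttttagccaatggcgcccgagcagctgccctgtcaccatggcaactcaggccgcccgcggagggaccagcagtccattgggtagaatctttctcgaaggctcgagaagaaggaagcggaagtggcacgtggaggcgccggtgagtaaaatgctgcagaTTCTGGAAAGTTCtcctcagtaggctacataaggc

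**Figure D2:**
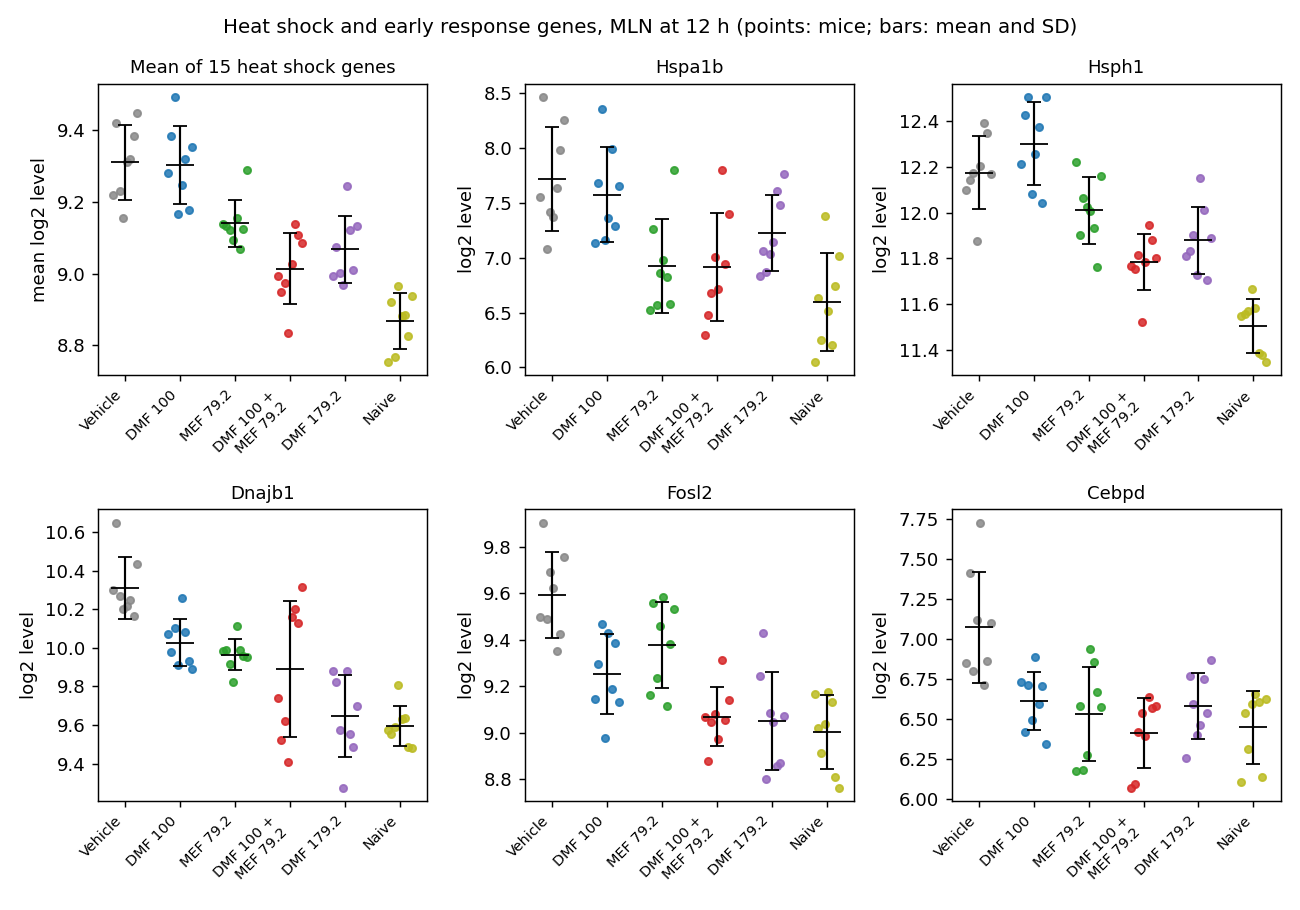
Mean log2 level of 15 heat shock genes (first panel) and log2 level of Hspa1b, Hsph1, Dnajb1, Fosl2 and Cebpd in each MLN at 12 h (points, 1 mouse each), with the mean and SD as bars. The list mean of the DMF+MEF mice, 8.84 to 9.14, lies below that of the vehicle mice, 9.15 to 9.45, and the naive mice lie at 8.75 to 8.97.

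Early response genes, which growth and stress signals switch on within minutes, fell in part. Of 25 measured immediate early genes 5 were called lower and 0 higher, beside 2.42 percent of all genes called lower, with a median of -0.17. The naive mice had 11 of the 25 called lower than vehicle and 0 higher, with a median of -0.225. In that comparison 24.4 percent of all 17097 genes were called, 1890 lower and 2284 higher. Fosl2, a partner of Jun in the factor AP-1, had levels of 9.35, 9.56 and 9.90 with vehicle and 8.88, 9.06 and 9.31 with DMF+MEF, without overlap. It fell by 0.52 ± 0.092 (adjusted p = 0.00017). Ier2 fell by 0.34 ± 0.079 (adjusted p = 0.00509), and Dusp2, a MAP kinase phosphatase, by 0.32 ± 0.081 (adjusted p = 0.012). The factors Egr1 and Jund fell by 0.17 ± 0.052 and 0.17 ± 0.04 (adjusted p = 0.0443 and 0.00732). The call of Dusp2 was lost without vehicle animal 5 or DMF+MEF animal 36, and that of Egr1 without any of 7 single mice. Fos spread widely in the vehicle mice, from 6.63 to 8.57, and its change of -0.52 ± 0.19 was not called (adjusted p = 0.118). With 12 h arrays only 2 of the 25 were called, and without animals 5 and 36 it was 1.

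Transcription factors and signalling genes were among the other lower calls. Cebpd, a factor that cytokines and glucocorticoids induce, had levels of 6.71, 6.98 and 7.72 with vehicle and 6.07, 6.48 and 6.64 with DMF+MEF. All 8 dosed mice lay below the lowest vehicle mouse, and the fall was 0.66 ± 0.12 (adjusted p = 0.00039). Tgfb1, a cytokine that restrains lymphocytes, had levels of 6.39, 6.60 and 6.74 and 5.41, 6.08 and 6.39, where the highest dosed mouse lay just below the lowest vehicle mouse. It fell by 0.58 ± 0.091 (adjusted p = 1.71e-05). Bcl3, a nuclear IkB protein, fell by 0.55 ± 0.10 (adjusted p = 0.00030), with 7 of 8 dosed mice below the lowest vehicle mouse. It was the 1 called gene of 19 inflammatory NF-kB genes, beside 2.42 percent of all genes called lower. The naive mice averaged 6.45 for Cebpd, beside 6.41 with DMF+MEF and 7.07 with vehicle. For Bcl3 they averaged 8.33, above the 8.24 of the vehicle mice. Yrdc, which acts in tRNA modification, fell by 0.41 ± 0.068 (adjusted p = 6.72e-05) without overlap.

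Ltb, the lymphotoxin subunit that lymphocytes use to organise lymph nodes, had levels of 7.89, 8.05 and 8.36 with vehicle and 7.46, 7.70 and 7.90 with DMF+MEF and fell by 0.41 ± 0.078 (adjusted p = 0.00039). Its vehicle mice averaged 7.92 at places 1 to 4 and 8.27 at places 5 to 8, and the DMF+MEF mice 7.66 at places 1 to 4 and 7.71 at places 9 to 12. In the shared places it fell by 0.27 and was called (adjusted p = 0.0465). Smchd1, a chromatin protein of gene silencing, and the zinc finger gene Zbtb41 were also called lower there, by 0.36 and 0.54, and over all places by 0.34 ± 0.093 and 0.32 ± 0.076 (adjusted p = 0.0203 and 0.00713). The other probe set of Zbtb41 changed by -0.030. Smchd1 lost its call over all places without vehicle animal 5 or DMF+MEF animal 36.

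Further lower genes were named for the size of their change. Apold1, an early response gene of endothelium, fell by 0.72 ± 0.19 and Bcl6b, a repressor related to Bcl6, by 0.63 ± 0.15 (adjusted p = 0.0148 and 0.00527). Kcne4, a potassium channel subunit, fell by 0.60 ± 0.18 (adjusted p = 0.0347), a call lost on leaving out any of 8 single mice. Tenm3, a teneurin of cell contacts, fell by 0.58 ± 0.13 (adjusted p = 0.00391) on the tested probe set and gave -0.12 on the other, and Tbc1d10a, which acts on Rab proteins, by 0.53 ± 0.10 (adjusted p = 0.00023). Rbpms, an RNA-binding protein, and the histone gene H3c14 fell by 0.61 ± 0.16 and 0.53 ± 0.12 on the tested probe sets. Their other probe sets differed from these, with changes of -0.37, -0.039 and 0.11 for Rbpms and of 0.24 for H3c14.

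**Figure D3:**
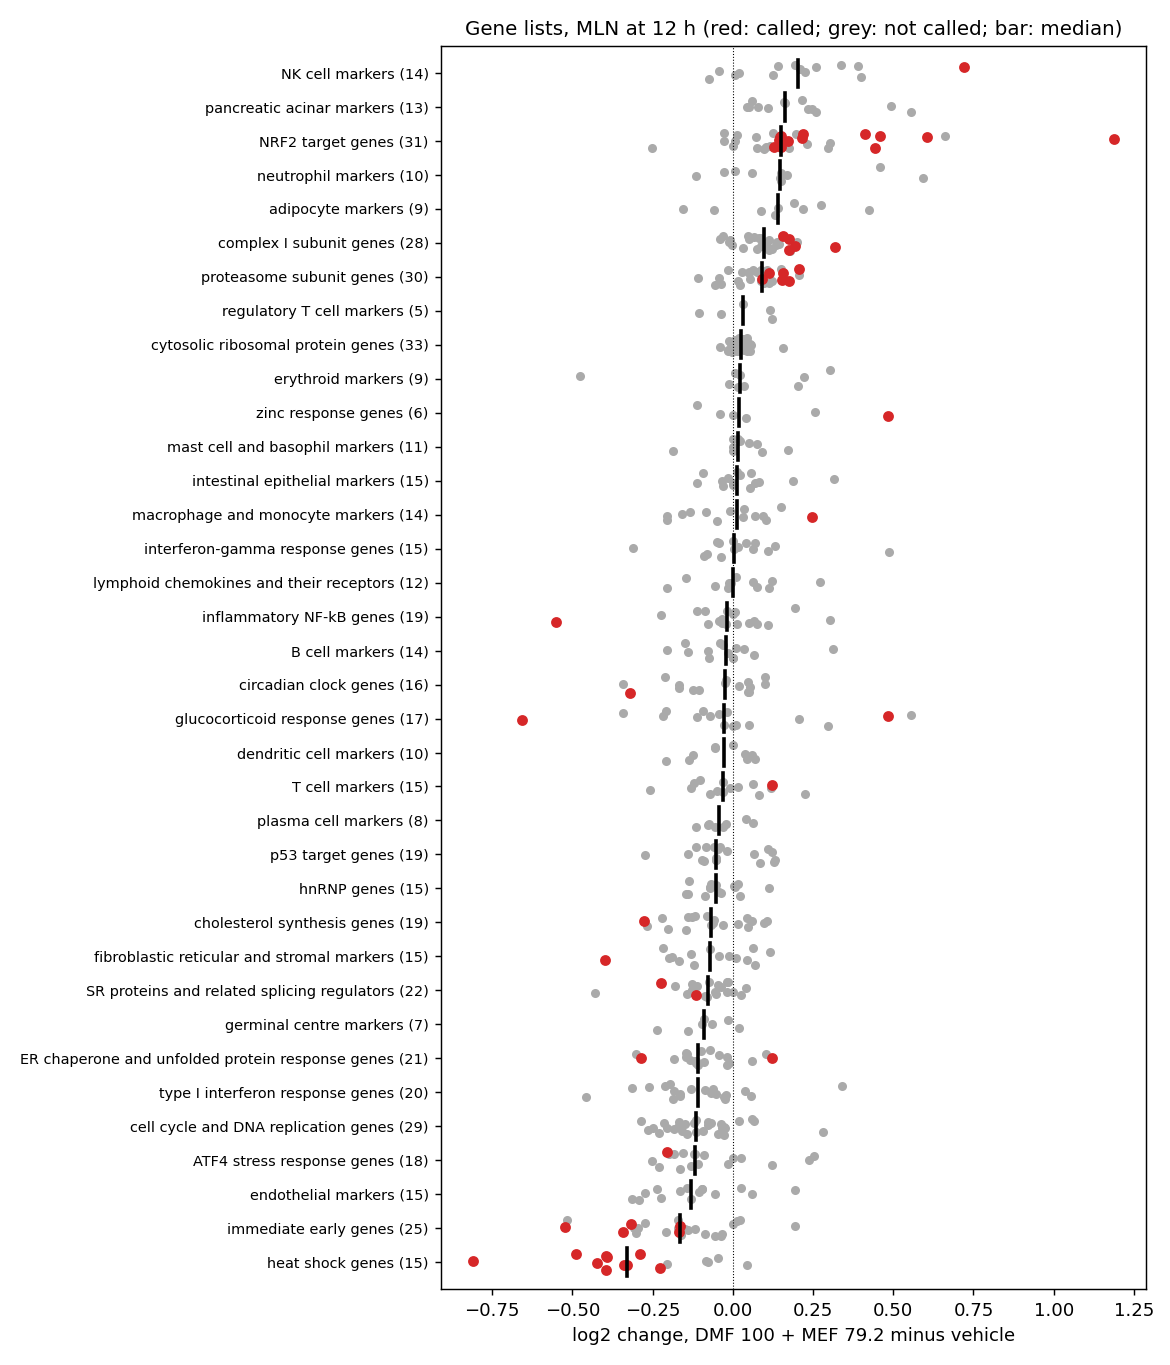
Log2 change between DMF+MEF and vehicle of each measured member (points) of 36 gene lists, ordered by the median (bars). Called members are red and the others grey. The 13 called members of the NRF2 list lie above 0, and the 10 called members of the heat shock list and the 5 of the immediate early list lie below 0.

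Markers of the cell types of the node gave few calls, beside 4.24 percent of all genes called. No gene was called among the markers of B cells (14 measured), plasma cells (8), germinal centres (7), regulatory T cells (5), dendritic cells (10), neutrophils (10), endothelium (15), adipocytes (9), pancreatic acinar cells (13), intestinal epithelium (15), erythroid cells (9) or mast cells and basophils (11). Of 15 T cell markers Cd3d, a chain of the T cell receptor complex, was called higher (0.12 ± 0.038, adjusted p = 0.0458), a call lost on leaving out any of 12 single mice and with 12 h arrays only (adjusted p = 0.0975). Of 15 stromal markers Des, desmin, was called lower (-0.40 ± 0.11, adjusted p = 0.0208), a call lost on leaving out any of 3 single mice. Besides the NK cell list, the marker lists with medians beyond 0.1 were the acinar (0.16), neutrophil (0.15), adipocyte (0.14) and endothelial (-0.13) ones. The adipocyte mean ran from 8.26 to 9.58 in the vehicle mice and from 8.72 to 9.97 in the DMF+MEF mice. That of the neutrophil markers, low throughout, ran from 3.46 to 4.13 and from 3.69 to 4.63. The part of these cell types in the changes of other genes was not tested.

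Other programmes gave at most 2 calls each, where 4.24 percent of all genes were called. Lists with a called gene lay above that share, and lists with none lay below it. Whether these lists differed from that share was not tested. Of 22 SR proteins and related splicing regulators Srsf4 and Rbm39 were called lower, by 0.22 ± 0.07 and 0.11 ± 0.031. Without vehicle animal 5 Srsf4 gave -0.12, and any of 10 single mice ended its call. The other 8 probe sets of Rbm39 ran from -0.18 to 0.17. Of 21 genes of the endoplasmic reticulum and its unfolded protein response Syvn1, a ubiquitin ligase of that organelle, was called lower, by 0.29 ± 0.079, and Sec61b, a subunit of its import channel, higher, by 0.12 ± 0.029. Without vehicle animal 5 Syvn1 gave -0.19 and was not called, and its call was also lost without DMF+MEF animal 36. The amino acid transporter Slc7a1 was the 1 called of 18 ATF4 genes, lower by 0.21 ± 0.044. Bhlhe40, a repressor in the clock, was the 1 called of 16 clock genes, lower by 0.32 ± 0.08. Srebf2, the regulator of cholesterol synthesis, was the 1 called of 19 genes of that pathway, lower by 0.28 ± 0.066. Of 17 glucocorticoid response genes Mt1 was higher and Cebpd lower, as given above. No gene was called by limma among 20 type I interferon, 15 interferon-gamma, 19 p53, 29 cell cycle, 33 ribosomal protein, 15 hnRNP and 12 lymphoid chemokine genes.

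The combination was next set against DMF 100 mg/kg alone, which asks what MEF added. Both groups held the same places. Here 345 genes (2.02 percent) were called, 96 higher (0.562 percent) and 249 lower (1.46 percent). Of 15 heat shock genes 6 were lower with the combination and 0 higher, with a median of -0.28. The 6 were Ahsa1, Cacybp, Chordc1, Hspa4l, Hsph1 and Stip1. Of 31 NRF2 genes 0 were called, beside 0.562 percent of all genes called higher. Their median was 0.11, beside 0 for all genes. Hsph1 was lower by 0.52 ± 0.066 and Chordc1 by 0.41 ± 0.052 (each adjusted p = 1.44e-07). With DMF alone Hsph1 ran from 12.04 to 12.51 and Chordc1 from 10.25 to 10.59, in both cases above all 8 mice of the combination. Tgfb1 was lower by 0.54 ± 0.091 (adjusted p = 0.00015), Bcl3 by 0.41 ± 0.10 (adjusted p = 0.0147) and Ltb by 0.35 ± 0.078 (adjusted p = 0.00694).

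By size the lower genes that the rule named were Tenm3 (-0.68 ± 0.13), Rhbdl3, a rhomboid family gene (-0.62 ± 0.14), and Chd1, a chromatin remodeller (-0.57 ± 0.11). Between DMF+MEF and vehicle the other 3 probe sets of Chd1 gave -0.41, -0.16 and -0.058, beside -0.48 on the tested one. The higher ones were Slc14a1 (0.57 ± 0.095), Cplx2 (0.48 ± 0.092) and Ccdc62, a coiled-coil gene (0.45 ± 0.10). Gstm2 exceeded its level with DMF alone by 0.30 ± 0.072 (adjusted p = 0.00969). For Nqo1 the difference of 0.40 ± 0.16 was not called (adjusted p = 0.183). With 12 h arrays only, 82 genes were called.

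The combination was also set against MEF alone, whose mice held the places of the vehicle mice. There were 14 called genes (0.0819 percent), 11 higher and 3 lower. Nqo1 was higher by 0.92 ± 0.16 (adjusted p = 0.00207), Cplx2 by 0.44 ± 0.092 and Blvrb by 0.39 ± 0.082 (each adjusted p = 0.0274). Gstm1 was higher by 0.36 ± 0.081 (adjusted p = 0.0369) and Txn1 by 0.14 ± 0.026. The 3 lower genes were Txlna, a syntaxin-binding taxilin (-0.30 ± 0.067), Yrdc (-0.30 ± 0.068) and the zinc finger gene Zfp292 (-0.24 ± 0.055). Between DMF+MEF and vehicle the other probe sets of Txlna gave 0.017 and 0.018, beside -0.32 on the tested one. Those of Zfp292 ran from -0.36 to 0.021, beside -0.13 on the tested one. With 12 h arrays only, 1 gene was called.

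Values of the single agents stand beside those of the combination, all 3 against the same 8 vehicle mice, so that the comparisons share their controls. Called genes numbered 14 (0.0819 percent) with DMF 100 mg/kg and 103 (0.602 percent) with MEF. They were 4 and 8 with 12 h arrays only. The MEF mouse with animal number 25 had an acinar mean of 9.87, and without it and animal 37 the MEF count was 21. Without animals 5 and 36 the counts were 6 and 36, and with further quantile normalization 8 and 46. Nqo1 gave 0.79 ± 0.16 with DMF, 0.27 ± 0.16 with MEF and 1.19 ± 0.16 with both. Gstm1 gave 0.37, 0.24 and 0.61 in that order, and Blvrb 0.38, 0.023 and 0.41. For these genes the value with DMF alone was above that with MEF alone. Hspa1b gave -0.14 ± 0.21 with DMF, -0.80 ± 0.21 with MEF and -0.81 ± 0.21 with both. Tenm3 gave 0.10, -0.65 and -0.58, Chd1 0.093, -0.47 and -0.48, and Cebpd -0.46, -0.54 and -0.66. With MEF alone Tenm3, Chd1 and Cebpd were called (adjusted p = 0.00728, 0.0291 and 0.0268), and Hspa1b was called at the edge of the threshold (adjusted p = 0.04998). Without animals 25 and 37 Tenm3 stayed called (adjusted p = 0.0249), while Chd1, Cebpd and Hspa1b did not (adjusted p = 0.0732, 0.0732 and 0.126), nor did these 3 with 12 h arrays only (adjusted p = 0.154, 0.111 and 0.169). DMF and MEF differed in dose, so the single agents were not tested against each other. DMF at 179.2 mg/kg, whose mice held places 5 to 12, had 2364 called genes (13.8 percent) and gave 1.44 for Nqo1 and 0.71 for Gstm1.

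**Figure D4:**
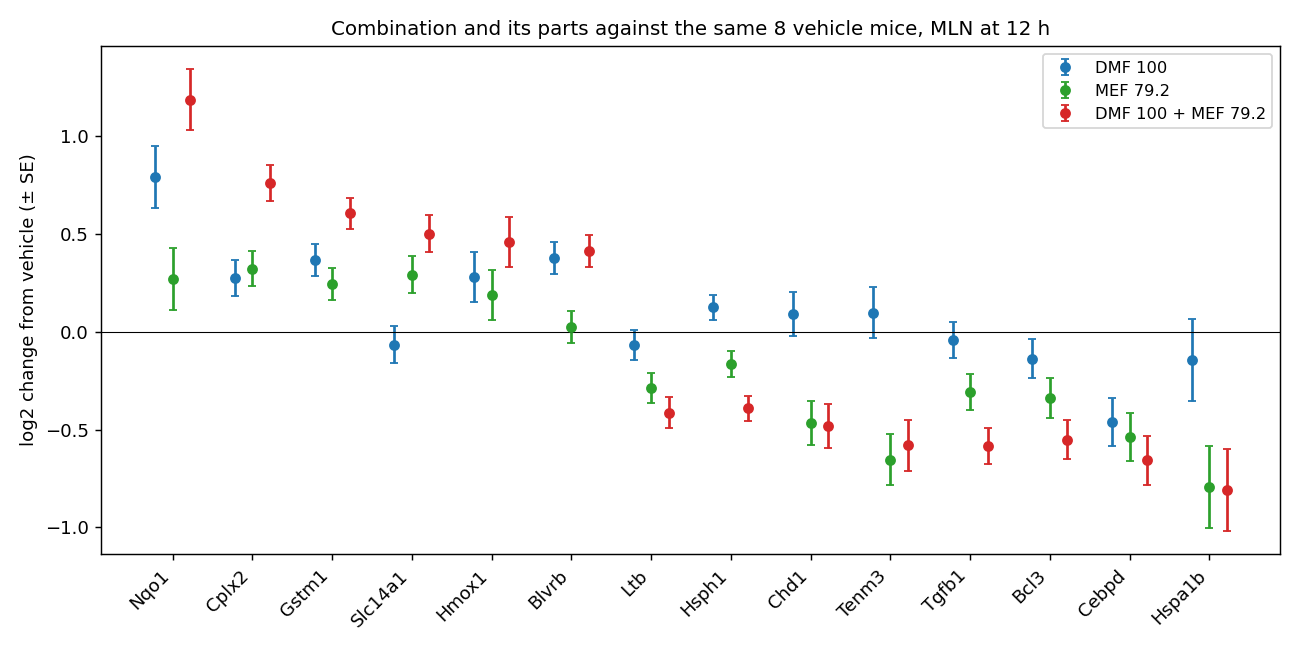
Log2 change from vehicle (points, with SE bars) of 14 genes in MLN at 12 h with DMF 100 mg/kg, MEF 79.2 mg/kg and both, each against the same 8 vehicle mice. Nqo1, Gstm1 and Blvrb have higher points for DMF than for MEF, and for Chd1 and Tenm3 the points of MEF and of the combination lie below that of DMF.

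Whether the combination departed from the sum of its parts was tested as the change with both agents minus the changes with each. No gene was called by limma (0 percent of 17097), and 725 genes had an unadjusted p below 0.05. This contrast is balanced for place. The departure was 0.12 ± 0.22 for Nqo1, -0.0057 ± 0.11 for Gstm1, 0.0097 ± 0.12 for Blvrb and 0.13 ± 0.30 for Hspa1b. For Hsph1 it was -0.35 ± 0.093 and for Chordc1 -0.26 ± 0.074 (each adjusted p = 0.798).

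The lowest value of the table was 2.12 at 6 h and 2.19 at 12 h, so levels were compared within a time only. At 6 h 31 genes (0.181 percent) were called between DMF+MEF and the vehicle of that time, 24 higher (0.14 percent) and 7 lower (0.0409 percent). These groups differed in place as well, with DMF+MEF at places 1 to 6 and 11 to 12 and vehicle at places 3 to 10. The count was 35 with a place line, 16 with a place curve and 23 with spans of places. Of the 31 NRF2 genes 13 were higher, and of the 15 heat shock genes 0 were called, with a median of -0.11. Nqo1 ran from 6.33 to 7.18 in the vehicle mice and from 8.03 to 8.97 in the dosed mice at 6 h, a change of 1.97 ± 0.16 (adjusted p = 3.91e-16). Hmox1 changed by 0.77, Srxn1 by 0.54 and Osgin1 by 0.46 at 6 h, each of them called. The test of the difference between the times called 1 gene (0.00585 percent), Txnrd1, and 980 genes had an unadjusted p below 0.05. At 6 h Txnrd1 ran from 10.68 to 10.92 in the vehicle mice and from 11.11 to 11.27 with DMF+MEF, a change of 0.40 ± 0.039 (adjusted p = 5.36e-12). The effect at 12 h minus that at 6 h was -0.29 ± 0.055 (adjusted p = 0.0165). For Nqo1 this difference was -0.79 ± 0.22 and was not called (adjusted p = 0.401). Tgfb1, Cebpd, Hsph1 and Chordc1 gave -0.22, -0.021, -0.12 and -0.0083 at 6 h. None of these 4 was called at 6 h, and none of their differences between the times was called.

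Tra2b, a splicing regulator, is an example of a gene that fell over the places, the less frequent direction among the called slopes. It averaged 8.08 in the vehicle mice at places 1 to 4 and 7.18 at places 5 to 8, and 7.93 in the DMF+MEF mice at places 1 to 4 and 6.47 at places 9 to 12. Its slope was -0.21 log2 per place (adjusted p = 3.28e-11). Between DMF+MEF and vehicle it gave -0.43 ± 0.34, not called (adjusted p = 0.566). For Nqo1 and Fosl2 the slopes of 0.0099 and -0.014 per place were not called (adjusted p = 0.728 and 0.255), and their changes with the place line were 1.17 and -0.50.

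**Figure D5:**
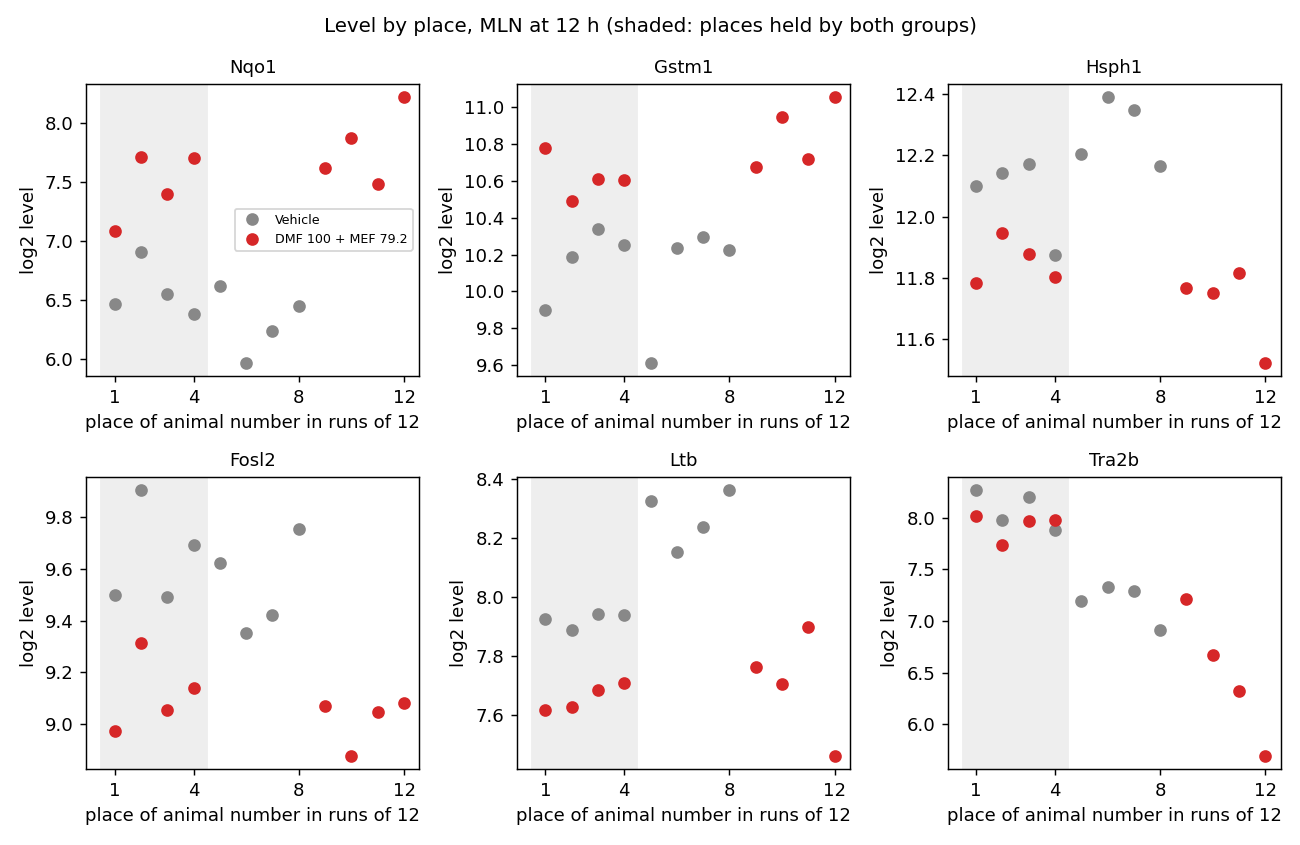
Log2 level of 6 genes against the place of the animal number in runs of 12, for the vehicle mice (places 1 to 8) and the DMF+MEF mice (places 1 to 4 and 9 to 12) in MLN at 12 h. In the shaded places that both groups held, Nqo1, Gstm1, Fosl2 and Ltb do not overlap between the groups, and Hsph1 overlaps, while across all places Tra2b is lower at later places in both groups.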

How the data were processed

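RNA of 88 MLN was measured on expression arrays of 45141 probe sets, per the labels, from biotin-labelled cRNA. The values are the deposited log2 levels that the authors made. The submitters' processing notes name RMA, GCRMA, R 2.11.1 and limma 3.4.5, with no roles, and the background correction used is not given in the sources used here. Values are log2, end at a floor of 2.19 at 12 h, and were not normalized further. Columns of other organs, 462 in number, were not used.

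Probe sets with 1 gene symbol (28898) were kept, and 1 was tested for each of 17097 genes, the one with the highest mean over the MLN arrays. limma 3.58.1 in R 4.3.3 fitted all 11 MLN groups, with Benjamini-Hochberg adjustment over all genes. The fit was tested on simulated data with no course over the places and the same spread at both times. That test cannot show how place or unequal spread affects the calls. In the main fit P-values rest on the spread between mice within groups, pooled over all 11 MLN groups of both times. Differences with place are part of that spread. Place is the position of the animal number in runs of 12. Alternatives changed the samples, place, probe sets, normalization, filter and variances. Replicate arrays were compared, and 0 were identical. The number of arrays limits the precision.

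The members and lists were chosen with earlier results of these data known. Genes were named by size of change among called genes above the median level, by calls in the shared places, as up to 4 called members of each list, and by a list of 17 genes of interest. Of these, Hspa1a was not tested. Other list members, and the genes whose promoters are shown, were named after their values were seen. Promoters came from RefSeq (GRCm38.p6) and were found for 59 of 72 genes.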

Additional observations from a re-analysis of the deposited data

Results flagged for a closer look

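Of 144 groups of 8 arrays examined for the named genes, 9 had an array whose gap to the next exceeded Dixon's 95% limit, where chance gives about 1 in 20. Animal 5 of the vehicle group was highest for Akr1b8 (5.225, next 4.785), Dusp2 (7.761, next 7.089), Srsf4 (8.844, next 8.178) and Syvn1 (9.426, next 8.831). Animal 36 of the DMF+MEF group was highest for Gstm2 (9.52, next 8.977) and lowest for Hsph1 (11.52, next 11.75) and Srebf2 (8.461, next 8.757). Animal 37 of the DMF+MEF group was highest for Zfp292 (10.24, next 9.98), and animal 8 of the vehicle group lowest for Slc7a1 (11.18, next 11.3). All values are log2 levels.

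For Txnrd1 the effect of DMF+MEF differed between the times, by -0.295 log2 at 12 h relative to 6 h (limma adjusted p = 0.0165).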

How the results depend on the processing

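No paired analysis was possible because the groups compared share no replicate numbers. The count of 725 called genes between DMF+MEF and vehicle became 245 with 12 h arrays only, 1093 with a place curve, 78 with these groups alone and 12 in the shared places, and, in an alternative chosen after seeing the data, 377 without animals 5 and 36. Leaving out single mice gave 460 to 791. The 345 genes against DMF became 82 with 12 h arrays only, 623 with a place curve and, chosen after seeing the data, 140 with 12 h arrays and a place line. The 14 against MEF became 24 with quantile normalization, 23 without dim genes, 1 with 12 h arrays only, 81 with a place curve, 73 with spans of places and 3 with 12 h arrays and a place line. The 1 gene that differed between the times became 0 with quantile normalization, 2 with the mean of all probe sets, 4 with a place line, 14 with a place curve, 10 with spans of places, 4 without animals 5 and 36, and 2 without the arrays with acinar genes (animals 25 and 37). The departure from additivity gave 0 in each setting run. The share called higher was 42.9 percent, 31.4 without dim genes, 32.3 with a place line, 51.99 without animals 5 and 36, 50.3 with quantile normalization, 50.2 without animals 25 and 37, and 8.33 in the shared places, so which direction holds more calls depends on the setting. The causes of these shifts were not tested.

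Of 59 named called genes, 42 kept their call with 12 h arrays only, 54 with a place line, 37 without animals 5 and 36, 40 on leaving out each mouse in turn, 17 with these groups alone and 4 in the shared places. None of the 59 reversed in the settings run. Levels near the floor of 2.19 limit what can be seen of dim genes: 4.91 percent of genes were at the floor on all 12 h arrays.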
